A study of Mus musculus with 3 samples.

Results

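The strongest autosomal peaks of tagged thyroid hormone receptor alpha (TRα) were set against those of tagged thyroid hormone receptor beta (TRβ) in mouse C17.2 cells. For each receptor the 3000 peaks with most sequence tags on chromosomes 1 to 19 were taken, ties going to the shorter peak and then to the lower position, and each peak was replaced by a window of 500 bp around its summit. The 6000 windows came from 17195 peaks of both lists, of which 16362 were autosomal. C17.2 is a line of mouse neural progenitor cells. Line C17.2a stably expressed TRα and line C17.2b stably expressed TRβ, both with a Protein G tag. The tagged receptor was recovered from sonicated chromatin on IgG magnetic beads and the bound DNA was sequenced, which is chromatin affinity purification followed by sequencing (ChAP-seq). Both lines received no treatment and were kept for 24 h in serum-free medium before fixation, so neither list comes from cells given thyroid hormone. There was 1 line and 1 library per receptor. Receptor, line and library therefore cannot be told apart, and with no replicates the receptors are compared without p-values. Positions are on mm9.

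TRα and TRβ are nuclear receptors encoded by different genes, with closely similar DNA-binding domains. They recognise hexamer half-sites arranged as direct repeats, mostly as heterodimers with a retinoid X receptor, and can sit on DNA without hormone, where they recruit corepressors. TRα is the form that prevails in most of the brain, whereas TRβ is prominent in liver, pituitary, retina and cochlea. A comparison of tagged forms in one cell background asks how far the receptors occupy the same places when each is expressed as a tagged protein.

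The libraries held 19786966 unique tags for TRα and 16556350 for TRβ, or 97.7% and 83.4% of all tags. The 3000 TRα peaks made up 43.5% of the autosomal TRα list and the 3000 TRβ peaks 31.7% of the autosomal TRβ list. A TRα member held between 23 and 1995 tags with a median of 34, and a TRβ member held between 9 and 1741 tags with a median of 12. Tags were scaled to 1000000 unique tags of the library they came from, and these depth-scaled tags had medians of 1.72 for TRα and 0.725 for TRβ. TRα peaks were also wider, at a median of 701 bp against 246 bp. The TRα peaks had been called with a modelled tag shift of 139 bp and the TRβ peaks with one of 56 bp, and the part of this setting in the widths and tags was not tested. At the lower limit, 131 of 213 TRα peaks with 23 tags were inside the selection, with a median width of 554 bp, while those outside were 678.5 bp wide. In the TRβ list 330 of 876 peaks with 9 tags were inside, at a median width of 176 bp against 210 bp. Their median fold enrichments, the authors' own value for a peak over its own library, were 10.4 inside and 9.92 outside.

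About 1 in 3 of the strongest sites of each receptor was also among the strongest of the other, here called shared. A window was shared when it met a window of the other 3000 by at least 1 bp. Of the TRα windows 999 were shared (33.3%, 95% Wilson interval 31.6 to 35.0), and of the TRβ windows 1040 (34.7%, 33.0 to 36.4). As background, 17.8% of all 6902 autosomal TRα peaks met one of the 3000 TRβ windows, and 12.8% of all 9460 autosomal TRβ peaks met one of the 3000 TRα windows. These intervals cover counting error only, and windows of one library are not independent replicates. The shared windows held 45.7% of the tags of all TRα members and 44.9% of those of all TRβ members.

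The other 2001 TRα and 1960 TRβ windows were single, meaning without a partner among the other 3000. Few of them had a partner lower in the other list. Against all autosomal TRβ peaks, 158 further TRα windows (5.27%, 4.52 to 6.12) met a weaker TRβ peak and 1843 (61.4%, 59.7 to 63.2) met none. Against all autosomal TRα peaks, 231 further TRβ windows (7.70%, 6.80 to 8.71) met a weaker TRα peak and 1729 (57.6%, 55.9 to 59.4) met none. With any autosomal peak of the other receptor as partner, the background was 22.2% for TRα and 16.7% for TRβ peaks. The weaker TRβ partners held 6 to 9 tags and the weaker TRα partners 10 to 23. A site without a partner is one whose window met no window around an autosomal summit of the other list. A wide deposited peak of the other list can still cover such a site. The weakest autosomal peak held 10 tags in the TRα list and 6 in the TRβ list, or 0.505 and 0.362 depth-scaled tags. Lower occupancy does not show in these lists, and the parts of depth and peak calling in these limits were not tested.

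Sharing followed rank in the TRα list but not at the top of the TRβ list. Of the TRα windows ranked 1 to 100, 88 were shared (88%, 80.2 to 93.0). The share was 70% (63.3 to 75.9) at ranks 101 to 300 and 50.4% (46.7 to 54.1) at ranks 301 to 1000. It was 25.6% (23.0 to 28.4) at ranks 1001 to 2000 and 16.2% (14.0 to 18.6) at ranks 2001 to 3000. Of the TRβ windows ranked 1 to 100, 51 were shared (51%, 41.3 to 60.6), fewer than the 72% (65.4 to 77.8) at ranks 101 to 300 and the 66% (62.4 to 69.4) at ranks 301 to 1000. The TRβ share then fell to 25.6% (23.0 to 28.4) and 12.7% (10.8 to 14.9). The plot of shared windows by rank shows the lists apart in the top 100 and again at ranks 301 to 1000, in opposite order. Among peaks with a fold of at least 5, a limit set after seeing the data, 49 of 83 TRβ windows of the top 100 were shared (59.0%, 48.3 to 69.0) and 142 of 188 at ranks 101 to 300 (75.5%, 68.9 to 81.1), so that the intervals then just overlapped. Of the pairs formed between the lists, there were 35 pairs with both peaks in the top 100, 105 with both in the top 300 and 425 with both in the top 1000.

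**Figure D1:**
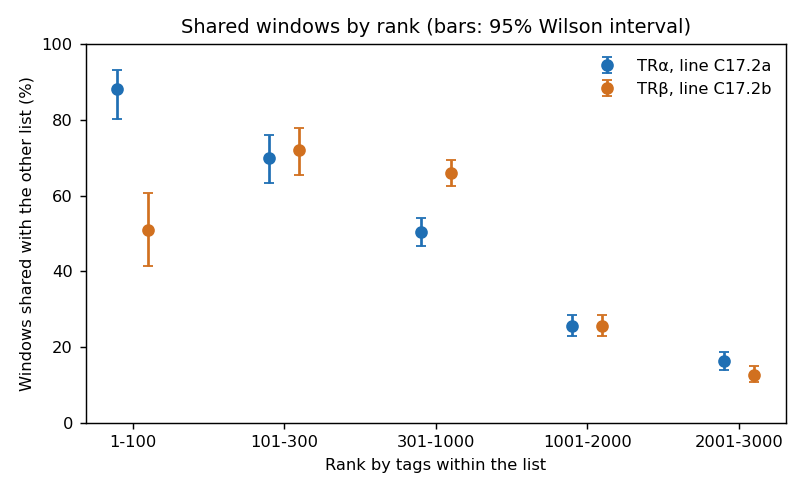
Percentage of windows shared with the other list (y axis) in 5 bands of rank by tags (x axis), for TRα (blue) and TRβ (orange), with bars for the 95% Wilson interval. TRα drops at every step from 88% to 16.2%, whereas TRβ starts at 51%, stands at 72% and 66% in the next 2 bands and ends at 12.7%.

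The 49 single sites among the 100 TRβ peaks with most tags lay in few places. In 5 bins of 1 Mb, each with at least 4 of these sites and picked after their values were seen, there were 31 of the 49, together with 11 shared sites. On chromosome 12 from 75 to 76 Mb there were 10, with 1553 tags and folds of 9.22 to 31.5. On chromosome 11 from 98 to 99 Mb there were 6, with folds of 6.13 to 20.8, and on chromosome 17 from 87 to 88 Mb there were 4, with folds of 19 to 29.4. In these 3 places every such peak had a fold above 5. Chromosome 11 from 3 to 4 Mb was of another kind, with 7 sites and 2585 tags but folds of 1.98 to 6.89, of which 6 were under 5. Chromosome 9 from 3 to 4 Mb held the remaining 4, with folds of 8.46 to 10.1. Outside the 5 bins, 40 of 58 TRβ peaks of the top 100 were shared (69.0%). The bins were picked for their single sites, which by itself raises the share outside them. The 5 bins held 27 TRα members in all.

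Sites strong in both lists included peaks of high fold and others of low fold. The 10 shared sites with the lowest sum of ranks, at sums of 4 to 32, were spread over 6 chromosomes. On chromosome 17 the TRα peak from 36621278 to 36622026 held 402 tags and the TRβ peak from 36621582 to 36621945 held 363, with folds of 16.9 and 18.8. On chromosome 9 the TRα peak from 35112694 to 35113453 held 358 tags and the TRβ peak from 35112776 to 35113179 held 357, with folds of 18.0 and 24.0. Scaled to depth these were 20.3 TRα against 21.9 TRβ tags on chromosome 17, and 18.1 against 21.6 on chromosome 9. In depth-scaled tags both sites were close, with log2 ratios of TRα over TRβ of -0.11 (95% exact counting interval -0.32 to 0.10) and -0.25 (-0.47 to -0.04). Per kb of peak TRβ was higher at both, with log2 ratios of -1.15 and -1.16.

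Others had lower TRα folds. On chromosome 17 the TRα list gave a single wide peak from 39979842 to 39985877, with 1995 tags and a fold of 3.25. In the TRβ list the same block was split into a peak from 39979922 to 39983902 with 1741 tags and one from 39984102 to 39985882 with 722. The window of the TRα summit met the window of the latter, so the former counted as a single TRβ site although its deposited peak overlapped the TRα peak. Such cases were rare, since 6 of the 2001 single TRα sites and 34 of the 1960 single TRβ sites overlapped a member of the other list as deposited. A group of 3 shared sites on chromosome 2 between 98502370 and 98507553 held 540, 329 and 613 TRα tags and 535, 319 and 411 TRβ tags, at TRα folds of 4.46 to 5.70. No control library entered the calling, so places that collect tags in any pull-down cannot be told apart from binding sites.

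At shared sites, TRα peaks held more depth-scaled tags than TRβ peaks, by somewhat less than between the whole lists. Pairing each shared window with its closest partner gave 999 pairs. The TRα peaks of the pairs held a median of 2.22 depth-scaled tags (quartiles 1.67 and 3.18) and the TRβ peaks 1.03 (0.785 and 1.39). TRα was higher in 933 pairs and TRβ in 66. The median log2 ratio of TRα over TRβ was 1.08 (exact interval of the median 1.04 to 1.14), a 2.11-fold difference, with quartiles of 0.59 and 1.53. The medians over all 3000 members of each list differed by 1.25 on the same log2 scale, and those of the single sites by 1.19. Members were chosen by tags, and the lowest depth-scaled value of a member was 1.16 for TRα and 0.544 for TRβ. The part of these unequal limits in the ratio of the pairs was not tested.

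The direction of this ratio turned once width was taken into account. TRα peaks of the pairs were 715 bp wide at the median and TRβ peaks 283 bp. Per kb of peak, the median log2 ratio was -0.25 (-0.29 to -0.22), with TRα higher in 300 pairs and TRβ in 699. Tags were counted over a different stretch of DNA in each list, so the pairs do not show which receptor was bound more. In 555 of 999 pairs (55.6%) TRα was at least 2-fold higher in depth-scaled tags, against 51% of the 1526 pairs of all autosomal peaks. TRβ was at least 2-fold higher in 1 pair (0.1%), against 0.131% of those 1526. Per kb of peak these counts changed sides: TRα was at least 2-fold higher in 13 pairs (1.30%), against 0.983% of the 1526, and TRβ in 114 (11.4%), against 16.2%.

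**Figure D2:**
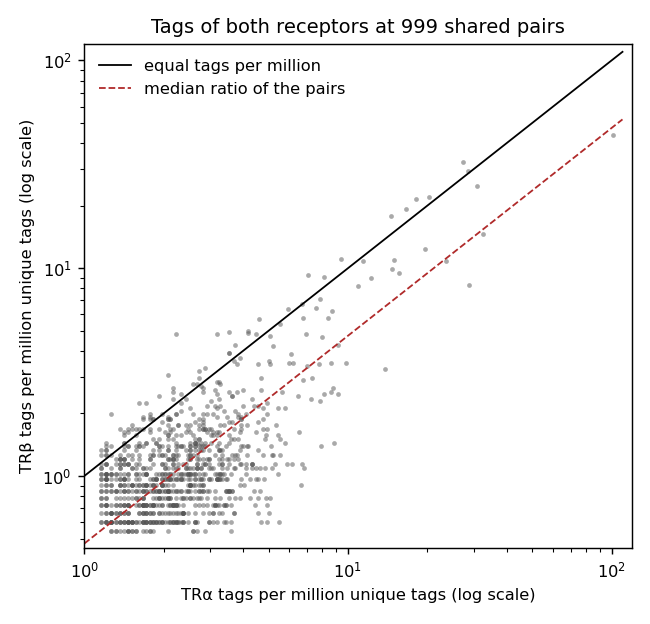
TRα (x axis) and TRβ (y axis) depth-scaled tags (per 1000000 unique tags) at the 999 shared pairs, 1 point per pair, both axes on a log scale. Most points lie below the black line of equal tags, around the dashed line of the median ratio (2.11-fold higher for TRα), while several of the strongest pairs lie on or above the black line.

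The ratio of some pairs differed from the median of all pairs by more than counting error. The exact counting interval of a pair held the median of all pairs in 751 cases (75.2%), lay above it in 109 and below it in 139. Grouped into quintiles by the sum of their ranks, the pairs had median log2 ratios of 0.97 in the strongest quintile, 1.17, 1.17 and 1.05 in the following ones and 1.06 in the weakest. Among the 10 pairs with the lowest rank sums, 6 had a log2 ratio below 0, against 66 of all 999, and the 10 ranged from -0.29 to 1.21. Across the 999 pairs, tags of TRα and TRβ had a Spearman correlation of 0.445, and tags per kb one of 0.379. These are descriptions across sites of the same libraries, limited to peaks above each list's lower limit.

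The pairs furthest toward either receptor were taken from 715 pairs with at least 50 tags in both lists together. Those with the highest ratio were strong TRα peaks paired with TRβ peaks near the lower limit. On chromosome 8 the TRα peak from 74102488 to 74103536 held 108 tags and its TRβ partner from 74102981 to 74103189 held 10, a log2 ratio of 3.18 (2.24 to 4.28). On chromosome 1 the TRα peak from 57284565 to 57285183 held 98 tags and the TRβ peak from 57284815 to 57285044 held 10, a log2 ratio of 3.04 (2.10 to 4.14). On chromosome 9 a TRα peak of 93 tags from 35173303 to 35174042 met a TRβ peak of 10 tags, with a log2 ratio of 2.96 (2.02 to 4.07). These 3 remained higher for TRα per kb of peak, at log2 ratios of 0.85, 1.61 and 1.13. The chromosome 9 site lay within 100 kb of the strong shared site that starts at 35112694, at which depth-scaled tags were close and tags per kb were higher for TRβ.

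Toward TRβ the log2 ratios of depth-scaled tags lay nearer to 0 than on the TRα side, with a median over all pairs of 1.08. On chromosome 13 the TRα peak from 4558873 to 4559426 held 44 tags, whereas the TRβ peak from 4559084 to 4559297 held 80, a log2 ratio of -1.12 (-1.68 to -0.57). No other pair had TRβ at least 2-fold higher in depth-scaled tags. On chromosome 5 the TRα peak from 147072339 to 147072991 held 63 tags and its TRβ partner 80, a log2 ratio of -0.60 (-1.10 to -0.11). On chromosome 19 the TRα peak from 45724169 to 45724873 held 70 tags and its TRβ partner 82, a log2 ratio of -0.49 (-0.97 to -0.01). Per kb of peak the order of the sides differed, with log2 ratios of -2.49, -1.13 and -1.38 at these 3 sites and a range over all pairs of -2.75 to 1.61. The TRβ folds at these 3 sites were 17.4, 19.3 and 26.5, and the TRα folds 7.48, 11.3 and 12.9, each relative to its own library. Of the 5 pairs named by rule on this side, the remaining ones had counting intervals that held 0. With a TRα peak starting at 83988562 on chromosome 9, the log2 ratio was -0.66 (-1.47 to 0.14). With one starting at 36368104 on chromosome 17, it was -0.57 (-1.20 to 0.05).

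Summits of both receptors lay close together at shared sites. They were a median of 35 bp apart (exact interval 32 to 38, quartiles 12.5 and 69), with 618 of 999 pairs (61.9%) within 50 bp and 886 (88.7%) within 100 bp. The TRβ summit lay at the higher coordinate in 495 pairs, at the lower in 485 and on the same base in 19, with a median offset of 0 bp. Only 21 pairs were more than 250 bp apart. The median distance was 30 bp in the strongest quintile of pairs and 43.5 bp in the weakest.

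**Figure D3:**
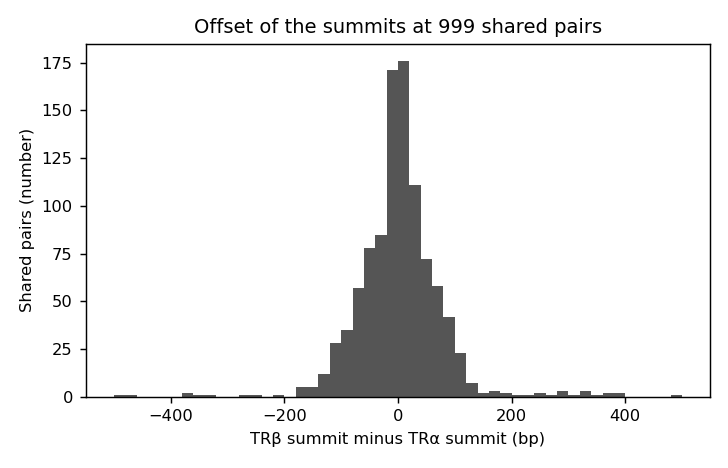
Number of shared pairs (y axis) by the position of the TRβ summit relative to the TRα summit in bp (x axis), in bins of 20 bp over the 999 pairs. The offsets centre on 0, with 88.7% within 100 bp on either side.

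Shared sites were stronger within their own list by tags, fold and score. In the TRα list shared windows held a median of 44 tags (quartiles 33 and 63) and single ones 30 (26 and 38). In the TRβ list these were 17 (13 and 24) and 11 (10 and 13). The ratio of the medians was 1.47 for TRα and 1.55 for TRβ. Median fold was 10.7 for shared against 8.37 for single TRα sites, and 11.2 against 9.74 for TRβ. Median score was 118 against 74.4 for TRα and 77.9 against 53.0 for TRβ. Median width hardly differed in the TRα list, at 715 against 694 bp, but did in the TRβ list, at 282 against 231 bp.

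The TRβ sites whose TRα partner was too weak to be a member were narrow and highly enriched. The 231 peaks had the highest median fold of the 3 TRβ classes, 14.9 (quartiles 11.1 and 24.7), in the narrowest peaks, at a median of 194 bp. They held a median of 12 tags, and their partners ranked 4296 at the median in the TRα list, with 18 tags. Their summits lay a median of 13 bp from the nearest TRα summit. The 158 TRα sites with a weaker TRβ partner had a median fold of 9.97 (8.01 and 12.0), between shared and unpartnered TRα sites, and lay a median of 44.5 bp from the nearest TRβ summit.

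Fold and width ordered the lists differently. Across quintiles of the TRα list by fold, the shared percentage rose from 18.8% (15.9 to 22.1) in the lowest to 58.5% (54.5 to 62.4) in the highest. In the TRβ list it was 24.3% (21.1 to 27.8) in the lowest, 42.9% (39.0 to 46.9) in the fourth and 44.5% (40.5 to 48.5) in the highest. With any TRα peak as partner the highest TRβ quintile reached 65.4% (61.5 to 69.1), as in the TRα list with any TRβ peak, at 65.1% (61.1 to 68.8). By width, TRα quintiles stayed between 29.9% and 39.4%, whereas TRβ quintiles went from 18.8% (15.9 to 22.0) for peaks of 81 to 185 bp to 64.4% (60.5 to 68.2) for peaks of at least 310 bp. Median tags also went from 10 to 22 between these TRβ quintiles. The 171 TRβ peaks of at most 120 bp were shared in 22.2% of cases (16.6 to 29.0) but met some autosomal TRα peak in 53.8% (46.3 to 61.1). No TRα member was that narrow. Tags, fold and width come from the same peak calls, and their separate parts were not tested.

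**Figure D4:**
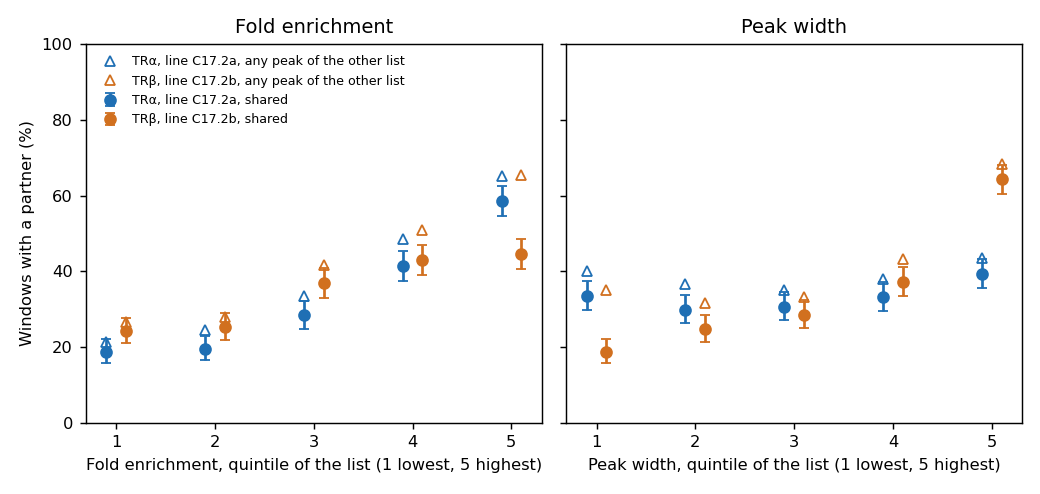
Percentage of windows with a partner (y axis) in quintiles of each list by fold enrichment (left) and by peak width (right), from lowest to highest, for TRα (blue) and TRβ (orange). Filled circles with 95% Wilson intervals show windows shared between the 3000 of each list, and open triangles windows with any autosomal peak of the other list, which for the highest TRβ fold quintile stand at 65.4% against 44.5% shared.

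The 10 single TRα sites with most tags held 100 to 541 tags, and 4 of them had folds under 5, against 173 of all 3000 TRα members. The nearest autosomal TRβ summit of these 10 sites lay between 87 and 104538 bp away. Among the other 6, the peak on chromosome 9 from 63403201 to 63404668 held 158 tags (7.99 depth-scaled tags) at a fold of 8.13, with the nearest autosomal TRβ summit 65576 bp away. The peak on chromosome 3 from 52489447 to 52490214 held 100 tags at a fold of 16.9, with the nearest TRβ summit 37780 bp away. A pair on chromosome 10, from 66393484 to 66394885 and from 66416548 to 66417932, held 119 and 135 tags at folds of 12.7 and 10.1, with TRβ summits no closer than 81869 bp. Strong single sites of different receptors were neighbours on chromosome 3, where the TRα peak from 142218272 to 142220184 (134 tags, fold 8.04) lay 3374 bp from the nearest TRβ summit, that of the TRβ peak from 142221762 to 142223185 (266 tags, fold 3.21). A different TRα summit lay 728 bp from this TRβ summit, outside the reach of the windows. One of the 10, on chromosome 7 from 72882009 to 72882958 with 117 tags, had a weaker TRβ peak 87 bp from its summit.

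Low folds were more common among the strongest single TRβ sites than in the whole TRβ selection. Folds under 5 were held by 33 of all 3000 TRβ members and by 15 of the 49 single sites of the top 100. Of the 10 single TRβ sites with most tags, 7 had folds under 5. The remaining 3 were a peak on chromosome 12 from 75046518 to 75047319, with 430 tags at a fold of 15.4, and a pair on chromosome 11 from 98624820 to 98625150 and from 98625535 to 98625922, with 269 and 226 tags. The nearest TRα summit lay 126096 bp from the former, and 8604 and 9289 bp from the latter. Each had another TRβ member within 1 kb, at 641, 633 and 685 bp.

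TRβ members were packed more tightly than TRα members at short range and less so at long range. Another TRβ member lay within 1 kb of 226 TRβ windows (7.53%, 6.64 to 8.53), whereas 15 TRα windows (0.5%, 0.303 to 0.823) had another TRα member that close. Within 10 kb these were 17.0% (15.7 to 18.4) for TRβ and 10.9% (9.83 to 12.1) for TRα. Within 100 kb the order was the opposite, with 41.6% (39.8 to 43.3) for TRβ and 49.2% (47.4 to 51.0) for TRα. TRα peaks are wide, and neighbouring summits inside one called peak count once, so widths bear on the shortest distances. Among the shared sites, 39 TRα windows met more than 1 TRβ window, of which 6 met 3, while 4 TRβ windows met more than 1 TRα window.

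Shared sites had another member of their own list within 10 kb more often than unpartnered sites, with intervals that overlapped for TRβ. Another member of the same list lay within 10 kb of 14.0% of shared TRα sites (12.0 to 16.3) and 9.50% of those with no autosomal TRβ partner (8.24 to 10.9). For TRβ these shares were 19.2% (17.0 to 21.7) and 16.1% (14.4 to 17.9). Within 1 kb the TRβ shares were 10.3% (8.59 to 12.3) and 6.30% (5.25 to 7.55). Within 100 kb they were 47.7% (44.7 to 50.7) and 38.5% (36.2 to 40.8). The TRα shares within 100 kb were 51.0% (47.9 to 54.0) and 48.7% (46.4 to 51.0). TRβ windows that met the same TRα window are shared and within 1 kb of each other by construction. Their part in the TRβ shares was not tested. Of the 1843 TRα sites with no autosomal TRβ partner, 0 had another TRα member within 1 kb. This allows a share of up to 0.163% (3 counts of the total) or 0.208% (Wilson upper bound). The nearest autosomal TRβ summit of these 1843 sites lay a median of 64287 bp away, and 12.0% (10.6 to 13.6) had one within 10 kb. The 1729 TRβ sites with no autosomal TRα partner lay a median of 84549 bp from the nearest autosomal TRα summit, and 17.7% (16 to 19.6) had one within 10 kb.

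The lists were spread differently over the chromosomes. Chromosome 8 carried 228 TRβ windows (7.60%, 6.71 to 8.60) and 131 TRα windows (4.37%, 3.69 to 5.16). Chromosome 15 carried 241 TRβ windows (8.03%, 7.11 to 9.06) and 175 TRα windows (5.83%, 5.05 to 6.73). Chromosome 12 was of the opposite kind, with 79 TRβ windows (2.63%, 2.12 to 3.27) and 132 TRα windows (4.40%, 3.72 to 5.19). Numbers of shared windows are near equal on each chromosome by construction, since 960 of the 999 shared TRα windows and 1036 of the 1040 shared TRβ windows met exactly 1 window of the other list. The widest gap was on chromosome 9, at 56 TRα and 65 TRβ windows. Of single sites, chromosome 8 had 163 TRβ and 68 TRα sites, and chromosome 12 had 41 and 95. The percentage of TRα windows shared ran from 20% on chromosome 13 to 48.1% on chromosome 8, and that of TRβ windows from 22.8% on chromosome 15 to 57.5% on chromosome 9.

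**Figure D5:**
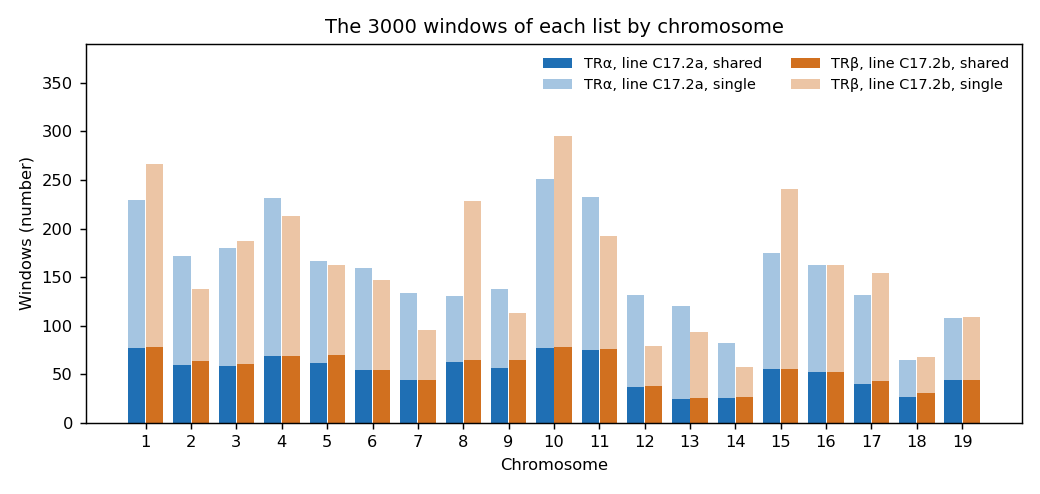
Number of windows (y axis) on each autosome (x axis) for TRα (blue) and TRβ (orange), with shared windows in full colour and single windows in pale colour above them. Shared numbers are near equal in both lists by construction, while single TRβ sites stand out on chromosomes 8 (163 against 68) and 15 (186 against 120) and single TRα sites on chromosome 12 (95 against 41).

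Part of the TRβ excess on chromosome 8 lay in 1 crowded megabase. The 3000 TRβ windows fell into 1374 bins of 1 Mb and the 3000 TRα windows into 1261, of which 955 held both. At least 10 members lay in 14 TRβ bins, with 253 windows (8.43% of the members, 28.9% of them shared), and in 4 TRα bins, with 43 windows (48.8% shared). The most crowded TRβ bin was chromosome 8 from 19 to 20 Mb, with 50 TRβ windows, of which 9 were shared, and 7 TRα windows, all 7 shared. Outside this bin chromosome 8 still held 178 TRβ against 124 TRα windows. Chromosome 9 from 3 to 4 Mb held 41 TRβ windows, of which 18 were shared, and 12 TRα windows, all 12 shared. Chromosome 1 from 85 to 86 Mb held 26 TRβ and 7 TRα windows, of which 5 in each list were shared. In these 3 bins, chosen for their numbers, TRβ windows outnumbered TRα windows, and at most 2 TRα windows of a bin were single.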

How the data were processed

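The members, lists and comparisons were chosen with earlier results of these data known. The authors' deposited lists give, per the file headers, peaks called with MACS in each library alone without a control, at a p-value limit of 0.0001, a tag size of 36 bp and a band width of 500 bp. No source used here names the MACS version. CASAVA 1.7, Bowtie 0.12.7 and mm9 stand in the submitters' processing notes. Tags are the deposited whole-number counts inside a peak. The score, deposited by the authors, is -10 times log10 of the p-value, and the fold is their deposited ratio, read here as relative to the peak's own library. Score and fold were used only within a list.

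Summits were taken as start plus summit offset. Windows were matched with Python 3.11.15, numpy 2.4.6 and pandas 2.3.3, and closest pairs were formed with each peak used once. Wilson intervals (95%) for shares and exact binomial intervals for tag ratios and medians came from scipy 1.17.1. Matching was tested on simulated data. Sites named by rule were the 10 shared sites with the lowest sum of ranks, the 10 single sites of each list with most tags, and the 5 pairs at either end of the ratio, not all of which are printed. No genome or annotation of mm9 was used here, so genes, start sites and motifs were not analysed and no sequence is shown. The RXR list was left aside.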

Additional observations from a re-analysis of the deposited data

Results flagged for a closer look

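Peaks outside chromosomes 1 to 19 were set aside by the choice of autosomes, and many had as many tags as the members. The TRα list held 146 such peaks with at least 23 tags, and the TRβ list 404 with at least 9 tags. On chromosome X, 92 of 103 TRα peaks (89.3%) met a TRβ peak of this strength, and 118 of 279 TRβ peaks (42.3%) met a TRα peak. On chromosome Y these were 42 of 43 TRα peaks (97.7%) and 55 of 122 TRβ peaks (45.1%). The remaining 3 TRβ peaks, with 9679 tags, lay on the mitochondrial sequence, where no TRα peak of this strength was called. Among the autosomal members, 33.3% of TRα and 34.7% of TRβ windows were shared. No control library entered the calling, so on these chromosomes too, places that collect tags in any pull-down cannot be told apart from binding sites.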

How the results depend on the processing

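For 6 results, 68 values under 13 other settings were computed: 39 stayed inside the counting interval of the first value, 28 left it and 1 turned direction. The last was the TRα to TRβ ratio per kb of peak, at a log2 of -0.25, since TRα peaks are wider. Without width, the log2 ratio of depth-scaled tags was 1.08, and it was 1.31 when tags were scaled to total instead of unique tags. Unique tags made up 97.7% of all TRα tags and 83.4% of all TRβ tags. With 1000, 2000 and 5000 peaks per list the TRα share was 42.8, 37.4 and 26.4% and the TRβ share 45.6, 39.3 and 27.3%. The ratio of shared to single median tags was 1.24, 1.38 and 1.65 for TRα, and for TRβ 1.26 with 1000 and 1.67 with 5000 peaks. The summit distance was 31.5 bp with 1000 peaks, and the log2 ratio 1.02 with 5000. With scores of at least 100, which left 1100 TRα and 490 TRβ peaks, the shares were 23.3% for TRα and 54.9% for TRβ, the distance 21 bp, the log2 ratio 0.59 and the TRα ratio of medians 1.30. Ranking by score gave a distance of 28 bp, a log2 ratio of 0.98 and a TRβ ratio of medians of 1.7. Ranking by tags per kb gave shares of 29.2% and 30.8%, a distance of 27 bp, a log2 ratio of 0.92 and a TRβ ratio of medians of 2.25. Windows of 200 bp gave a TRβ share of 32.7%. Except where stated, the cause was not tested. Removing peaks with folds under 5 was chosen after seeing the data and left all 6 results inside their intervals. Location and motif settings were not run. No paired analysis was possible because each receptor had 1 library.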
